A study of Arabidopsis thaliana with 12 samples.

Results

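The line S14-150 was compared with aba3-1, the abscisic acid (ABA) deficient Arabidopsis thaliana mutant in which it was selected. The comparison rests on 4 of the 12 arrays of the series, 2 of S14-150 and 2 of aba3-1, chosen by the names on the sample labels. The series screened for recessive mutants that lose the cold leaves of aba3-1 when seen by infrared thermography. S14-150 is taken to be 1 of the 4 suppressors so found, and thus to carry aba3-1 as well as a second mutation, although no label states the genotype of each line. The wild type (wt, 2 arrays) and the lines S15-118, S58-2 and S82-2 (2 arrays each) served to estimate the spread and to place the genes. All plants were untreated and grew on compost under short days (8 h light, 16 h dark) at 21 °C, and the aerial parts were taken. Plant age, accession and the number of plants pooled are not given in the labels.

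ABA is the hormone that closes stomata when water is short. The ABA3 enzyme sulfurates the molybdenum cofactor that the last oxidation step of ABA synthesis needs, so aba3-1 plants make little ABA, keep their stomata open and have leaves cooled by evaporation. The labels give as one aim the search for genes whose level differs from wt or from aba3-1, among them the mutated gene itself. The ABA3 gene itself was not analysed here, since the annotation used pairs it with none of the probe sets.

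Each array was an Affymetrix ATH1 array, and its values are log2 signals on which 1 unit is a doubling. The floor used here is a log2 signal of 4, and the 11561 probe sets above it on at least 2 of the 12 arrays were tested. Of these, 6073 (52.5%) are paired with exactly 1 gene and can be named. Array medians ran from 3.58 to 3.73, and 45.5% to 46.9% of the signals of an array were above the floor. The extracted RNA was 15 and 6.8 µg for S14-150 and 12.4 and 12 µg for aba3-1. The arrays carry replicate numbers 1 and 2, and differences were taken within each number and tested with limma with the number as a block. Nothing in the labels says that replicates are separate cultures, so the p-values reflect only how far these arrays differ, and that spread may be technical. Below, "passed" means an adjusted p under 0.05.

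Few probe sets passed between S14-150 and aba3-1, which with 2 arrays per group does not show that the rest were alike. The clearest differences were in an RNA helicase gene, whose signal was near background in S14-150 alone, and in 2 genes of the response to disturbed mitochondria. These 2 were high in S14-150. Of the 11561 probe sets, 10 passed (0.0865%), 4 higher in S14-150 (0.0346%) and 6 lower (0.0519%). Of these 10, 6 are paired with 1 gene and 4 with none. A wider group differed by at least 1 log2 the same way in both replicate numbers, 11 higher (0.0951%) and 41 lower (0.355%) in S14-150, and 2 differed by that much in opposite ways. At 1.5 log2 there were 5 higher (0.0432%) and 6 lower (0.0519%). At 0.5 log2 there were 63 higher (0.545%) and 274 lower (2.37%), and 19 differed by that much in opposite ways. All 10 that passed are in the group at 1 log2. The difference in number 1 had a Pearson correlation of 0.459 with that in number 2 across probe sets, which share a chip design and are not independent replicates.

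The count of 10 depends on the arrays. It was 64 (0.554%), 6 higher and 58 lower and including the same 10, when the S58-2 arrays were left out of the estimate of the spread, and 2 (0.0173%) without the replicate block, 1 higher and 1 lower (0.00865% each). It was 3 without S14-150 replicate 1, 3 without S14-150 replicate 2 and 3 without aba3-1 replicate 1.

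**Figure D1:**
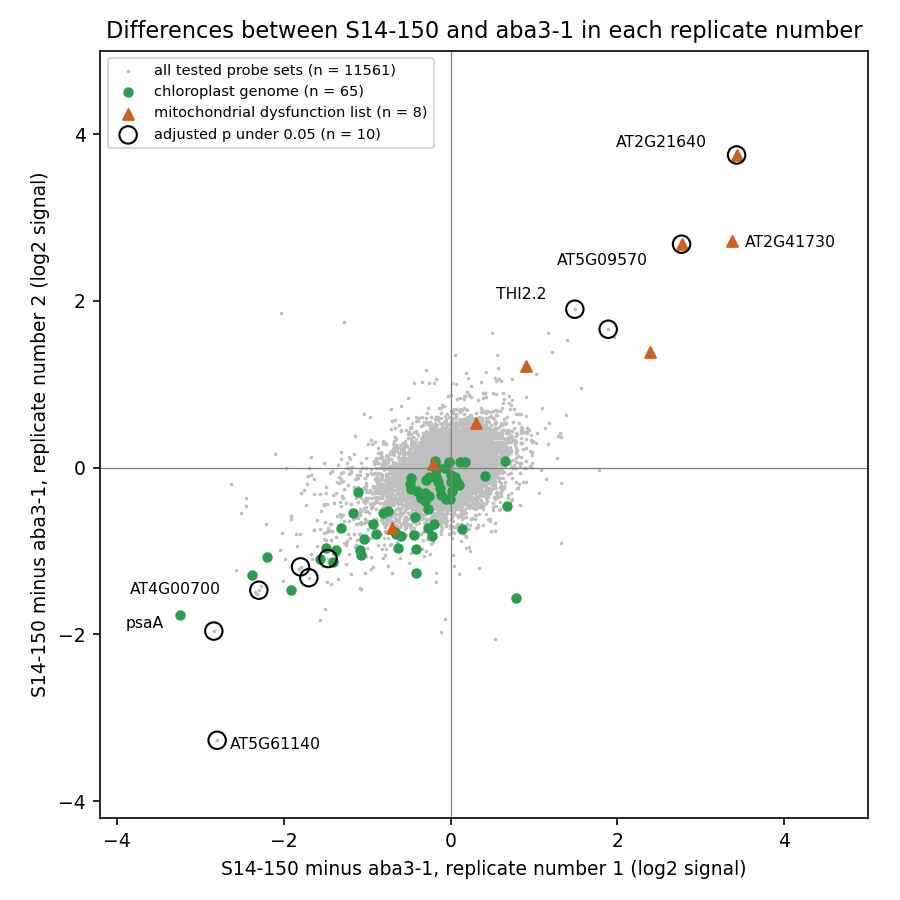
Difference of S14-150 minus aba3-1 in log2 signal for each tested probe set, with replicate number 1 on the horizontal axis and number 2 on the vertical axis. Triangles are the tested members of the mitochondrial dysfunction list, green points those of the chloroplast genome, and black rings the 10 probe sets that passed. The rings lie in the upper right and lower left, where both numbers go the same way, and most green points lie below 0 on both axes.

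AT5G61140 had the lowest signal relative to aba3-1 of any tested probe set. The gene encodes an RNA helicase related to Brr2, the helicase that opens paired small nuclear RNAs as the spliceosome is activated. Its log2 signal was 2.02 and 2.06 in S14-150, against 4.82 and 5.33 in aba3-1 and 5.10 and 5.35 in wt. On the 10 arrays other than those of S14-150 it lay between 4.81 and 5.35, with a median of 5.13, so the S14-150 arrays stood apart from every other array.

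AT5G61140 fell by 3.04 log2 in S14-150 relative to aba3-1 (SE 0.15, limma adjusted p = 2.12e-05), which is a fold of 8.20 between the signals, lower in both numbers. Because the S14-150 level is under the floor, the size of the difference is that of a measured signal to one near background. Relative to wt the difference was -3.19 (adjusted p = 1.31e-05), a comparison in which 1.39% of all tested probe sets passed, 0.718% higher and 0.675% lower in S14-150, and aba3-1 did not pass against wt (-0.15, adjusted p = 0.642). The gene passed with each of the 4 arrays of S14-150 and aba3-1 left out in turn, and in 11 of 12 alternative settings (adjusted p 1.34e-05 to 0.228). The other genes listed as splicing factors and RNA helicases gave no such values. The list holds 8 paired members, of which 5 were tested and 0 passed, with a median difference of 0.145 and a range of 0 to 0.215, and it does not hold AT5G61140 itself.

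Several of the transcripts with the largest upward differences in S14-150 belong to the list of mitochondrial dysfunction genes. In plants, nuclear genes of this group respond when mitochondrial respiration is disturbed, a route known as retrograde signalling. AT2G21640, named UPOX for its response to oxidative stress, encodes a mitochondrial protein. Its log2 signal was 7.42 and 7.44 in S14-150, against 3.99 and 3.69 in aba3-1 and 3.81 and 3.09 in wt.

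UPOX rose by 3.59 log2 in S14-150 (SE 0.27, limma adjusted p = 0.000503), a fold of 12.0 between the signals. The aba3-1 mean of 3.84 is under the floor, so this too sets a measured signal against one near background. The S14-150 arrays were far above both aba3-1 and both wt arrays, and the difference from wt was 3.98 (adjusted p = 0.000129). In the other lines the gene was at 7.54 and 6.69 in S15-118, 4.97 and 4.94 in S58-2 and 4.52 and 3.39 in S82-2, so S15-118 also reached the S14-150 level.

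AT5G09570 encodes a small mitochondrial protein with paired cysteine motifs, of the kind imported into the intermembrane space. It had log2 signals of 5.39 and 5.43 in S14-150, against 2.62 and 2.75 in aba3-1 and 2.55 and 2.52 in wt. It rose by 2.73 log2 in S14-150 (SE 0.23, limma adjusted p = 0.00114), a fold of 6.61, and its level in aba3-1 is under the floor. The S15-118 arrays stood at 5.68 and 4.83, those of S58-2 at 3.66 and 3.74 and those of S82-2 at 3.02 and 2.63. UPOX and AT5G09570 both passed with each of the 4 arrays left out in turn. UPOX missed the threshold without the replicate block (adjusted p = 0.0891, over its alternatives 0.000152 to 0.123), while AT5G09570 passed there.

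AT2G41730, a gene of unknown function, had a larger SE than UPOX and AT5G09570. Its probe set, which can bind transcripts of related sequence, had log2 signals of 7.23 and 6.58 in S14-150, against 3.85 and 3.86 in aba3-1 and 3.33 and 3.86 in wt. Both S14-150 arrays lay above both aba3-1 and both wt arrays. The difference from aba3-1, whose level is under the floor, was 3.05 (SE 0.55), but it did not pass (adjusted p = 0.108). S15-118 stood at 7.87 and 5.62. Against wt the difference was 3.31 and passed (adjusted p = 0.0236).

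AT5G51440 encodes a small heat shock protein of mitochondria. It was at 5.02 and 4.15 in S14-150, against 2.63 and 2.76 in aba3-1, a difference of 1.89 (adjusted p = 0.308). AT5G43450, of the family of 2-oxoglutarate-dependent oxygenases, was at 7.47 and 7.88 in S14-150, against 6.56 and 6.66 in aba3-1, a difference of 1.06 (adjusted p = 0.210). For each gene both S14-150 arrays lay above both aba3-1 arrays, and neither gene passed. The aba3-1 level of AT5G51440 is under the floor. S15-118 was at 5.84 and 3.60 for AT5G51440 and at 7.91 and 7.49 for AT5G43450. S58-2 was at 2.82 and 2.83 for AT5G51440 and at 6.94 and 7.64 for AT5G43450. S82-2 was at 2.72 and 2.75 for the first and at 5.88 and 5.87 for the second. Higher levels were thus not particular to S14-150.

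NDB2, an alternative NADH dehydrogenase that faces the space outside the inner membrane, ran the other way. Its log2 signal was 5.60 and 5.34 in S14-150, against 6.30 and 6.06 in aba3-1 and 5.17 and 4.74 in wt. The difference from aba3-1 was -0.71 (adjusted p = 0.609), and aba3-1 was 1.23 above wt (adjusted p = 0.0396). Among related genes, AT5G64400, a close relative of AT5G09570, was level in S14-150 and aba3-1 (difference -0.085, adjusted p = 0.966). AT2G04070, a transporter of the MATE family, was at 3.58 and 3.55 in S14-150 and at 3.27 and 3.01 in aba3-1 (difference 0.43, adjusted p = 0.691).

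In all, 12 genes of the mitochondrial dysfunction list have a paired probe set and 8 were tested. Of the 8, 2 passed higher and 0 lower, and 5 were higher and 1 lower by at least 0.5 log2 in both numbers, against 63 (0.545%) and 274 (2.37%) of all tested probe sets. The median difference was 1.48 log2 (1.65 in number 1 and 1.30 in number 2), against -0.005 over all tested probe sets. AT5G09570 and AT5G51440 cleared the filter through arrays of S14-150 and S15-118 alone, and the list was chosen with earlier results of these data known. The counts and the median therefore only describe the members measured, and their distance from the shares of all tested probe sets is no test of the list. The untested members were GSTU25, NDB4, AT2G32020 and AT2G04050. AT2G04050 was at 3.80 and 4.46 in S14-150, against 2.82 and 2.83 in aba3-1.

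**Figure D2:**
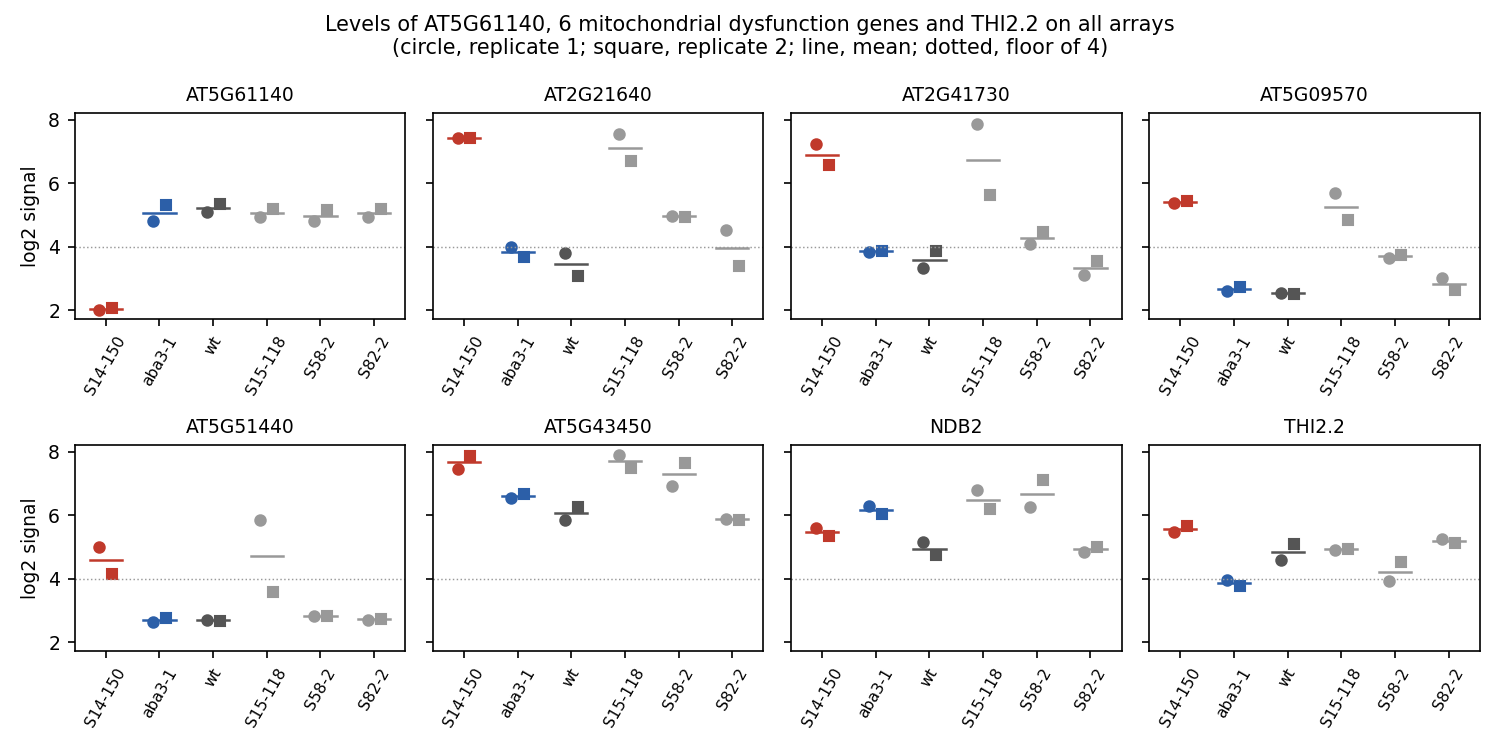
Log2 signal of AT5G61140, of 6 mitochondrial dysfunction genes and of the thionin gene THI2.2 on all 12 arrays, by group (circle, replicate 1; square, replicate 2; line, mean of the 2 arrays; dotted line, floor of 4). AT5G61140 is near 2 in S14-150 alone. UPOX (AT2G21640), AT2G41730 and AT5G09570 are high in S14-150 and S15-118, and NDB2 is lower in S14-150 than in aba3-1.

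A further pair of genes rose in S14-150, both lower in aba3-1 than in wt. THI2.2 encodes a thionin, a small antimicrobial peptide. It was at 5.47 and 5.68 in S14-150, against 3.98 and 3.78 in aba3-1 and 4.61 and 5.11 in wt. It rose by 1.70 log2 (SE 0.21, adjusted p = 0.0245), and the S14-150 arrays were the highest of all 12.

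AT2G30695 was at 5.26 and 5.42 in S14-150, against 3.37 and 3.76 in aba3-1 and 5.65 and 5.37 in wt. It rose by 1.77 log2 in S14-150 (SE 0.26, adjusted p = 0.0419), and the S14-150 and wt arrays did not stand apart (difference -0.17, adjusted p = 0.782). The lines S15-118, S58-2 and S82-2 had 4.80 to 5.94, so aba3-1 alone was low. AT2G30695 missed the threshold without S14-150 replicate 1, without S14-150 replicate 2 and without aba3-1 replicate 1, and THI2.2 without any 1 of the 4 arrays (adjusted p over all alternatives 0.0116 to 0.348 for THI2.2 and 0.0142 to 0.811 for AT2G30695).

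QQS, an Arabidopsis gene with no relatives in other plants that is linked to starch content, had log2 signals of 9.08 and 9.40 in S14-150, against 7.86 and 8.01 in aba3-1 and 5.59 and 4.50 in wt. The difference of 1.30 from aba3-1 did not pass (adjusted p = 0.208), and that of 4.20 from wt did (adjusted p = 0.000129). QQS was at 9.02 and 9.15 in S58-2, 9.22 and 9.11 in S82-2 and 7.04 and 7.0 in S15-118. A level above aba3-1 was thus not particular to S14-150. AGL87, a MADS-domain transcription factor gene, was at 5.54 and 4.93 in S14-150, against 3.98 and 3.98 in aba3-1 and 5.50 and 4.82 in wt. Its difference of 1.25 did not pass (adjusted p = 0.0996), except when the S58-2 arrays were left out (0.0268, over its alternatives up to 1).

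DI21, ZW9 and AT5G40500 had smaller differences from aba3-1, none of which passed. DI21, a gene first described as drought-induced, was at 6.77 and 7.07 in S14-150, against 6.03 and 6.01 in aba3-1 and 5.51 and 5.02 in wt. It was at 6.25 and 7.16 in S15-118, 6.88 and 6.55 in S58-2 and 6.05 and 5.91 in S82-2. ZW9, of the TRAF-like family, was at 5.75 and 6.18 in S14-150, against 4.84 and 5.33 in aba3-1 and 7.61 and 7.15 in wt. Against wt, S14-150 passed for DI21 (1.655, limma adjusted p = 0.0270) and for ZW9 (-1.415, limma adjusted p = 0.0428). AT5G40500 was at 7.39 and 6.73 in S14-150, against 6.63 and 6.03 in aba3-1.

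More transcripts were lower than higher in S14-150. Of the 41 probe sets lower by at least 1 log2 in both numbers, 20 are paired with 1 gene, 7 of the chloroplast genome and 13 nuclear. Of the 13, 11 also passed as higher in aba3-1 than in wt, all but AT5G61140 and AT1G01320 (adjusted p 0.000226 to 0.0260). Of all tested probe sets, 4.98% passed between aba3-1 and wt, 3.27% higher and 1.71% lower in aba3-1. This comparison and that with S14-150 share the aba3-1 arrays, so the values are given side by side. In 11 of the 41 the S14-150 mean was under the floor, and in 8 of the 11 probe sets higher in S14-150 the aba3-1 mean was.

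AT4G00700 encodes a membrane protein with C2 domains, which bind calcium and lipids, and it was the other named nuclear gene that passed. It was at 3.17 and 3.11 in S14-150, against 5.47 and 4.58 in aba3-1 and 2.32 and 2.11 in wt. It fell by 1.89 log2 in S14-150 (SE 0.21, adjusted p = 0.0136), and aba3-1 was 2.81 above wt (adjusted p = 0.000322). In the other lines it was at 5.15 and 4.48 in S15-118, 6.37 and 5.76 in S58-2 and 2.30 and 2.18 in S82-2. It missed the threshold without S14-150 replicate 1, without S14-150 replicate 2 and without aba3-1 replicate 1 (adjusted p over all alternatives 0.0101 to 0.748).

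CHI, here a putative chitinase, an enzyme that attacks fungal walls, was at 6.13 and 5.62 in S14-150, against 8.45 and 7.14 in aba3-1 and 4.33 and 3.0 in wt. Its difference from aba3-1 was -1.92 (SE 0.30, adjusted p = 0.0681) and from wt 2.21 (adjusted p = 0.00986), and the arrays of the 3 groups did not overlap. It passed in 2 of 13 alternatives, without the S58-2 arrays and with a trend of the spread with signal (adjusted p over all alternatives 0.0178 to 1). In the other lines CHI was at 4.68 and 3.01 in S82-2, 8.80 and 7.61 in S15-118 and 9.68 and 9.39 in S58-2.

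AT3G13610, known as F6'H1, makes the precursor of scopoletin, a coumarin with antimicrobial and iron-mobilising roles. It was at 3.29 and 3.09 in S14-150, against 5.56 and 4.51 in aba3-1 and 2.62 and 2.56 in wt (difference from aba3-1 -1.84, adjusted p = 0.301). AT1G57630, with the TIR domain found in immune receptors, was at 5.42 and 5.43 in S14-150, against 7.10 and 6.47 in aba3-1 and 3.81 and 3.87 in wt (difference from aba3-1 -1.36, adjusted p = 0.342).

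AT5G18470 encodes a lectin-like protein. It was at 5.78 and 5.45 in S14-150, against 6.86 and 6.91 in aba3-1 and 3.91 and 4.18 in wt (difference from aba3-1 -1.27, adjusted p = 0.273). AT4G12490, of the lipid-transfer type, was at 3.77 and 3.87 in S14-150, against 4.97 and 5.14 in aba3-1 and 2.74 and 1.89 in wt (difference from aba3-1 -1.24, adjusted p = 0.232). In each of these genes both S14-150 arrays lay below both aba3-1 arrays and above both wt arrays. The S82-2 arrays lay lower still, at 3.45 and 3.94 for AT5G18470 and at 3.25 and 2.56 for AT4G12490. Those of S15-118 and S58-2 lay above both S14-150 arrays. Signals below aba3-1 were thus not particular to S14-150.

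The ankyrin-repeat gene AT4G03450, the pseudogene AT3G48650 and the esterase-like gene AT1G68620 differed by -1.43, -1.34 and -1.38 from aba3-1. AT5G52760, which has a metal-binding domain, and AT4G39670, of a glycolipid-transfer family, differed by -1.13 and -1.03. AT1G01320, which holds tetratricopeptide repeats, had another pattern. It was at 4.13 and 4.98 in S14-150, against 5.50 and 6.03 in aba3-1 and 5.28 and 5.95 in wt, so both aba3-1 and wt were above S14-150 in each number. S15-118 was at 4.70 and 4.98, S58-2 at 4.53 and 4.17 and S82-2 at 4.39 and 5.02. The low level of AT1G01320 was thus not particular to S14-150. None of the genes in this paragraph passed with all arrays. When the S58-2 arrays were left out, 16 named nuclear genes passed as lower, among them CHI, AT1G57630, AT5G18470, AT3G48650, AT5G52760, AT4G39670 and AT1G01320.

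**Figure D3:**
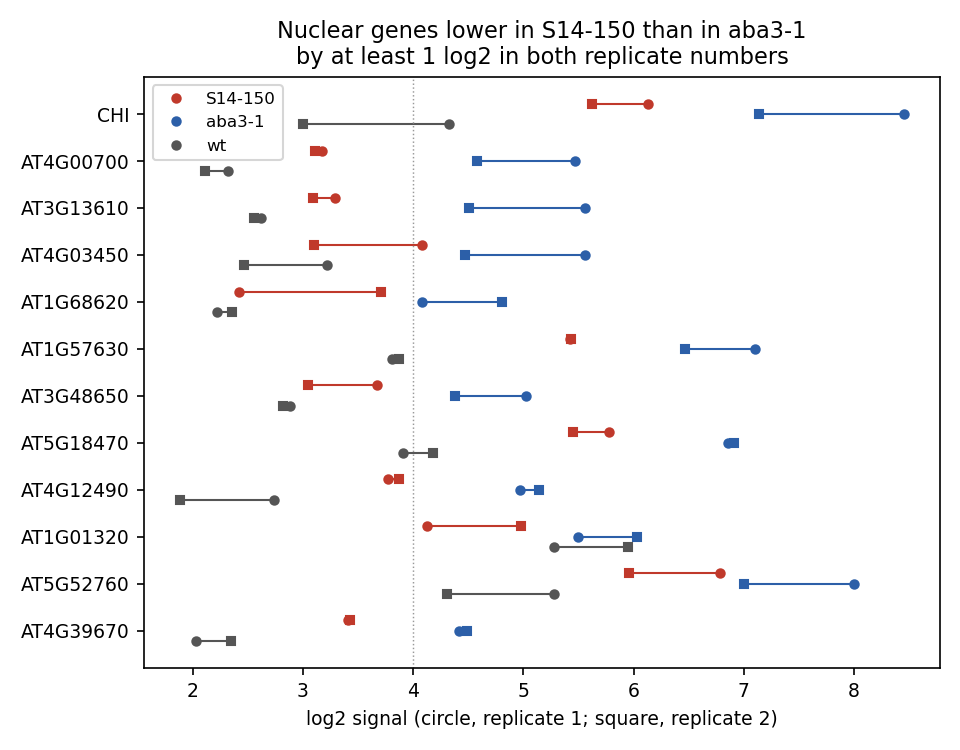
Log2 signal of the nuclear genes, other than AT5G61140, that were lower in S14-150 than in aba3-1 by at least 1 log2 in both replicate numbers (circle, replicate 1; square, replicate 2; dotted line, floor of 4). For all genes shown but AT1G01320, the S14-150 signal lies between those of aba3-1 and wt in each number. CHI spans the widest range, with aba3-1 at 8.45 and 7.14 and wt at 4.33 and 3.0.

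Some members of other lists differed by less than 1 log2 in at least 1 number. Hsp70-2, a cytosolic chaperone, was at 6.18 and 5.84 in S14-150, against 7.28 and 6.78 in aba3-1 and 4.73 and 4.04 in wt. Its difference (-1.02, limma adjusted p = 0.197) was the largest of the 5 tested members of the heat shock and chaperone list. That list does not hold AT5G51440. RING1, a ubiquitin ligase linked to cell death, was at 8.03 and 8.10 in S14-150, against 9.03 and 9.06 in aba3-1 (-0.98, adjusted p = 0.210), and was the 1 member of 25 tested ubiquitin-related genes lower by 0.5 log2 in both numbers (4%, against 2.37% of all tested probe sets). Of 10 tested cytochromes P450, CYP71B23 was at 6.09 and 5.51 in S14-150, against 7.53 and 6.38 in aba3-1 (-1.16, adjusted p = 0.190), and CYP71B24 differed by -0.54.

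The list of pathogenesis-related and antimicrobial genes went in both directions. Of 6 tested members, THI2.2 rose, CHI was lower without passing, and the median difference was -0.23. PDF1.2, a defensin induced by jasmonate with ethylene, was at 7.05 and 5.82 in S14-150, against 7.17 and 7.79 in aba3-1 and 4.82 and 4.58 in wt. Its difference from aba3-1 was -1.04 (adjusted p = 0.601) and lay almost wholly in number 2. WRKY53, a transcription factor of senescence and defence, was at 4.56 and 4.56 in S14-150, against 5.76 and 5.0 in aba3-1 and 3.72 and 3.01 in wt (-0.82, adjusted p = 0.517). The annotation used paired no probe set with a member of the salicylic acid list, so these genes were not measured here.

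The 4 probe sets that passed without a gene name were all lower in S14-150. Probe set 259925_at had the strongest signal, 10.17 and 9.70 in S14-150, against 11.87 and 11.02 in aba3-1 and 8.68 and 7.77 in wt (-1.51, adjusted p = 0.0387). Probe set 254271_at was at 4.87 and 4.77 in S14-150, against 6.67 and 5.96 in aba3-1 and 3.0 and 2.98 in wt (-1.50, adjusted p = 0.0400). Probe set 250476_at was at 2.54 and 2.68 in S14-150, under the floor as in wt (2.50 and 2.50), against 5.38 and 4.64 in aba3-1 (-2.40, adjusted p = 0.0400). Probe set 256431_s_at differed by -1.28 (adjusted p = 0.0376). When the 4 arrays of S14-150 and aba3-1 were left out in turn, 259925_at and 256431_s_at passed in 0 of the 4 fits and 254271_at and 250476_at in 1, that without aba3-1 replicate 2, with adjusted p over all alternatives reaching 0.564 to 1.

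Transcripts of the chloroplast genome tended to be lower in S14-150, though none passed with all arrays. This genome encodes part of the photosynthetic complexes, of the chloroplast ribosome and of its RNA polymerase. Of 69 paired probe sets 65 were tested, and petD, ndhF, rpoB and rps14 were left out as low. Of the 65, 48 were lower in S14-150 in both numbers (73.8%) and 3 higher, against 30.9% lower among all tested probe sets. The difference reached 0.5 log2 in both numbers for 21 lower (32.3%, against 2.37% of all tested) and 0 higher, and 1 log2 for 7 lower. The median difference was -0.355 log2, -0.31 in number 1 and -0.40 in number 2. These transcripts come from 1 genome with shared operons and are not independent of each other.

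psaA, a core protein of photosystem I, differed most. Its log2 signal was 7.56 and 9.10 in S14-150, against 10.81 and 10.87 in aba3-1 and 10.16 and 11.37 in wt, so that it differed from aba3-1 by -2.51 (SE 0.52, adjusted p = 0.190). The S14-150 arrays differed from each other by more than the arrays of any other group, and S58-2 replicate 2, at 8.82, was below S14-150 replicate 2. Of the 5 tested photosystem I genes all were lower in both numbers, with a median of -0.345.

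The ATP synthase genes had a median difference of -0.68 over 6 members. atpH, a subunit of the membrane ring, was at 7.32 and 8.77 in S14-150, against 9.70 and 10.06 in aba3-1 (-1.83, adjusted p = 0.226). atpF, of the stalk, was at 8.23 and 9.32 in S14-150, against 10.43 and 10.39 in aba3-1 (-1.64, adjusted p = 0.108). atpE and atpB, which share an operon, differed by -0.045 and -0.30, so the members of this complex were not alike.

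The 9 genes of the NADH dehydrogenase-like complex, which feeds electrons back into the photosynthetic chain, had a median of -0.70. ndhK was at 5.48 and 6.48 in S14-150, against 6.89 and 7.61 in aba3-1 and 7.41 and 8.04 in wt (-1.27, adjusted p = 0.456), and ndhC was level (0.12). accD, a subunit of the acetyl-CoA carboxylase of fatty acid synthesis, was at 5.27 and 5.93 in S14-150, against 7.19 and 7.40 in aba3-1 and 6.79 and 7.63 in wt (-1.70, adjusted p = 0.342). For ndhK and accD the S14-150 arrays lay below both aba3-1 and both wt arrays.

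The remaining groups were also lower at the median. The 15 photosystem II genes had a median of -0.355, led by psbD at 6.75 and 7.70 in S14-150, against 8.32 and 8.79 in aba3-1. The 14 ribosomal protein genes had a median of -0.24, the 5 cytochrome b6f genes -0.22 and the 3 RNA polymerase genes -0.385. The 8 genes of no such complex, accD and rbcL among them, had a median of -0.58. rbcL, the large subunit of the carbon-fixing enzyme, differed by -0.055, and the highest value of the 65 was 0.365 for rps15.

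In the whole series the median log2 signal of the 65 probe sets was 9.43 and 9.59 in S14-150, 10.29 and 10.45 in aba3-1, 10.08 and 10.73 in wt, 10.03 and 10.30 in S15-118, 10.06 and 9.45 in S58-2 and 10.01 and 10.45 in S82-2. Only S58-2 replicate 2 was as low as the S14-150 arrays, with 56 of 65 probe sets below aba3-1 replicate 2. When the S58-2 arrays were left out of the estimate of the spread, 7 of the 65 passed as lower, psaA, atpH, psbD, ndhK, ndhG, ndhH and psbB, against 0.502% of all tested probe sets.

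Signals of RNA quality were set beside these values. The 25S ribosomal RNA control was at 9.46 and 8.90 in S14-150 and at 7.32 and 9.73 in aba3-1. The difference between 3' and 5' probe sets of actin was 5.28 and 4.88 in S14-150 and 4.89 and 4.92 in aba3-1, and that of GAPDH was 1.82 and 1.74 in S14-150 and 1.65 and 1.75 in aba3-1. In number 1 the 3 values were higher in S14-150, and in number 2 the 3 were lower. Their part in the chloroplast values was not tested. The 6 tested nuclear genes of photosystems and light harvesting had a median difference of 0.0025, and 0 of them differed by 0.5 log2 the same way in both numbers. RNA of whole aerial parts cannot tell fewer cells of a type, or fewer chloroplasts, from less RNA in each.

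**Figure D4:**
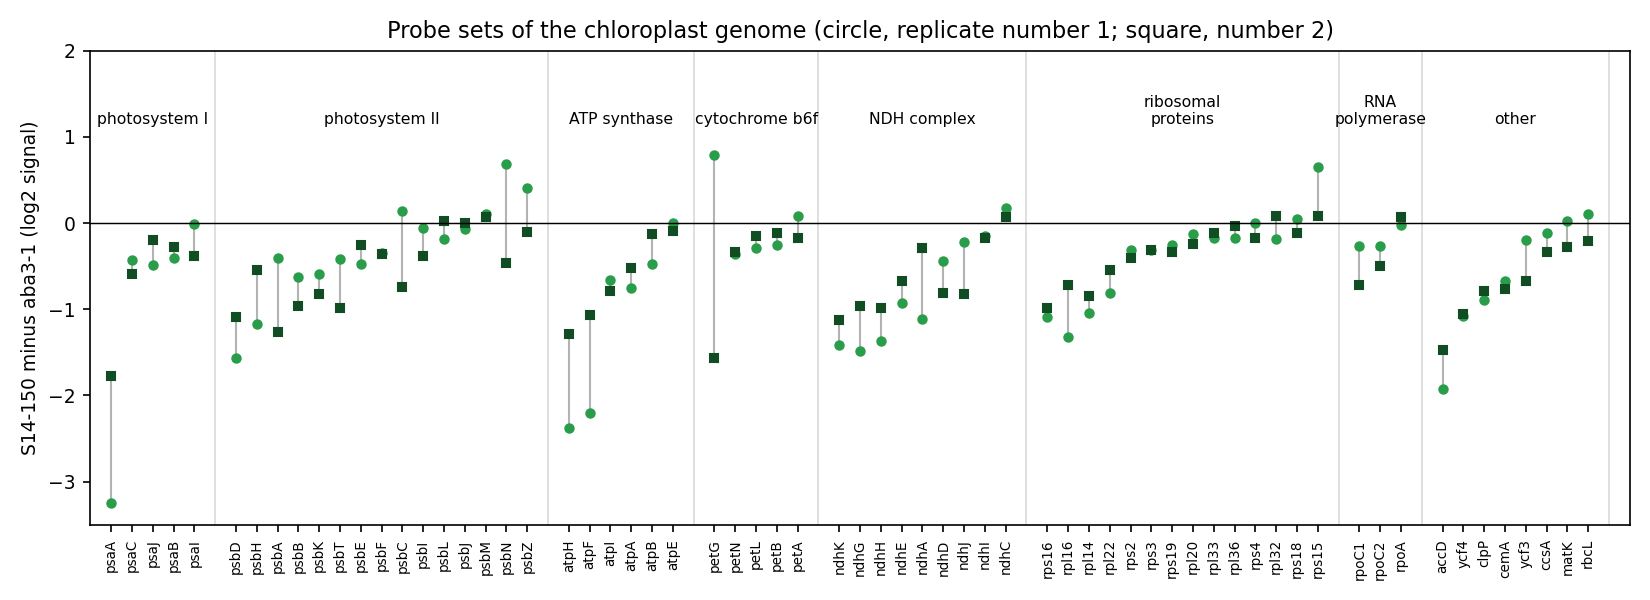
Difference of S14-150 minus aba3-1 in log2 signal for the 65 tested probe sets of the chloroplast genome, grouped by complex (circle, replicate number 1; square, number 2). Most points lie below 0. psaA reaches a mean of -2.51, while atpE and ndhC lie close to 0.

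Few of the genes linked most closely to ABA could be measured, since the annotation used names few of them. It paired no probe set with a member of the lists of ABA metabolism or of ABA receptors, phosphatases and kinases. Their levels are therefore unknown here, not low. XERICO, a RING protein gene that raises ABA levels, was at 6.24 and 3.74 in S14-150, against 6.25 and 4.24 in aba3-1 (-0.26, adjusted p = 0.879). Of 5 tested genes of the cold regulon, which ABA also induces, 0 passed, and the median difference was 0.26. COR15A, a chloroplast protein that protects membranes in frost, was at 9.52 and 7.43 in S14-150, against 9.18 and 7.17 in aba3-1 and 11.17 and 9.27 in wt. Its difference was 0.30 from aba3-1 (adjusted p = 0.750) and -1.75 from wt (adjusted p = 0.00231), so S14-150 was not told apart from aba3-1 and was lower than wt.

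The few markers of cell types that were measured differed little between S14-150 and aba3-1. The guard cell and stomatal lineage list has 7 paired genes, of which 3 were above the floor. Its summed signal, given as log2, was 9.67 and 10.02 in S14-150 and 9.95 and 10.02 in aba3-1. The sum was taken before the logarithm, so the strongest member weighs most in it. The differences of the 3 tested members ran from -0.23 to 0.265. The stomatal regulators SPCH, MUTE and FMA were below the floor on the arrays of S14-150, aba3-1 and wt. The trichome gene TRY was at 5.84 and 6.14 in S14-150, against 5.37 and 5.86 in aba3-1. RCA, the activase of the carbon-fixing enzyme and a leaf marker, was at 13.03 and 13.19 in S14-150, against 13.08 and 13.36 in aba3-1, and the root, flower and seed markers were under the floor on every array.

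Of 52 gene lists, 24 had at least 3 tested members, and members passed in 3 of them, as mitochondrial dysfunction, antimicrobial and jasmonate genes, where the last 2 share THI2.2. No member passed, with all arrays or with the S58-2 arrays left out, among 20 glycosyltransferases, 8 glutathione transferases and glutaredoxins, 13 peroxidases, catalases and thioredoxins, 11 expansins and xyloglucan enzymes or 14 bHLH, bZIP and homeobox factors. The medians of these lists lay between -0.10 and 0.005.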

How the data were processed

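RNA of aerial parts was amplified, labelled with biotin (20 µg) and hybridised to 12 ATH1 arrays, per the labels' protocols. The authors deposited log2 signals, for which the submitters' processing notes name GCRMA without a version. The logarithm was taken to base 2, as GCRMA gives it, though no source states it. From the 22810 probe sets of the table, 64 controls were dropped. Genes were named from GEO's platform annotation and RefSeq TAIR10.1 names (6059 of 6073 matched). Of the tested probe sets, 258 are paired with several genes and 5230 with none, and these were not named.

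A mean for each of 6 groups and the replicate number were fitted with limma 3.58.1 in R 4.3.3 (lmFit, eBayes, 5 residual degrees of freedom), with Benjamini-Hochberg adjustment across the 11561 probe sets tested. Every adjusted p is from limma. The numbers pair the arrays: deviations from group means correlated in all 15 pairs of groups (r 0.708 to 0.872, 0.872 for S14-150 and aba3-1). The code of the fit was run on simulated data with independent normal noise, which does not bear on the calls made here. The number of arrays limits the precision.

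Genes named were those that passed, the up to 12 per direction with the largest smaller difference of the 2 numbers, and up to 2 per list and direction. AT1G57630, AT5G18470, AT5G52760, AT4G39670, AT1G01320, PDF1.2, WRKY53, further members of the mitochondrial and chloroplast lists, and the marker genes were named after their values were seen. Members and lists were chosen with earlier results of these data known, and some list patterns were narrowed once the annotation was seen.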

Additional observations from a re-analysis of the deposited data

How the results depend on the processing

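With no replicate block 2 probe sets passed, 1 higher and 1 lower, and 1 of the mitochondrial dysfunction genes rather than 2. Without the S58-2 arrays 64 passed, 58 of them lower, and 7 chloroplast genome probe sets were among these. On the 4 arrays of S14-150 and aba3-1 alone 0 passed in limma, with 1 residual degree of freedom. With no filter 1 passed, lower, and 0 higher; with a floor of 6 the count was 4, 1 higher and 3 lower. Leaving out each array in turn gave 3 to 9 in all, 2 to 3 higher and 1 to 6 lower. The counts that went the same way in both numbers were 63 higher and 274 lower at 0.5 log2, 5 and 6 at 1.5 log2, and 5 higher with a floor of 6. Quantile normalisation and median centring left 10 passing, and a trend of the spread with signal gave 12. At an unadjusted p under 0.05 in limma the block gave 863 probe sets and the fit without it 270. With no change at all, about 578 of those tested would be expected there. Over 24 named genes and 302 alternatives, 270 kept direction and side of the threshold, 25 lost a pass, 7 gained one and 0 reversed. All 25 losses fall on the 6 named genes that passed, since only these had a pass to lose. Most of the 270 belong to genes that did not pass with all arrays and stayed so. The cause of these shifts was not tested. Levels under 4 bound what a log2 difference can show, and 2 arrays per group limit all tests.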
